A study of Mus musculus with 18 samples.

Results

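Regulatory T (Treg) cells of the mouse lung were compared with Treg cells of lymph nodes. The comparison rests on 3 lung and 3 lymph node libraries out of 18 in the series, and on the 14514 of 55487 gene IDs whose mean was at least 1 TPM (a transcript's share of the library's RNA, corrected for its length) in either group. All 6 libraries came from freshly prepared Treg cells of wild-type mice that received no treatment, and the labels give no difference between the groups other than the organ. The other 12 libraries are Treg cells of spleen, liver, bone marrow and peripheral blood, with 3 per site, and serve below to show where a gene stands elsewhere. The labels used here do not state the strain, sex or age of the mice, the sorting gates, which lymph nodes were taken, how lung tissue was dissociated, or whether replicates came from separate animals. The p-values therefore measure the spread between these libraries, which may be technical.

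Treg cells are CD4-positive T cells that depend on the transcription factor Foxp3 and restrain immune responses. In lymph nodes most of them recirculate, entering from the blood with the chemokine receptor Ccr7 and leaving with the sphingosine phosphate receptor S1pr1. In barrier organs such as the lung, many carry the interleukin-33 receptor Il1rl1 and the factors Gata3 and Rora, and can make the growth factor amphiregulin (Areg), which acts in epithelial repair. The comparison of the 2 sites addresses how Treg cells in a non-lymphoid tissue differ from those in a lymphoid organ.

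The cell type was checked first. Foxp3 was 222, 237 and 232 TPM in the 3 lung libraries and 239, 236 and 240.3 TPM in the 3 lymph node libraries, and the groups did not differ at the threshold of the test on the deposited scale (log2 fold change -0.05 ± 0.047, adjusted p = 0.415), whereas lung was higher by 0.18 with median ratio scaling, 0.36 after GC correction and 0.56 when scaled to T cell genes. Here and below, a log2 fold change is lung minus lymph node on the log2(TPM + 1) scale, followed by its standard error, while ± beside a TPM mean is the SD of 3 libraries. Adjusted p-values are from limma with Benjamini-Hochberg adjustment over the 14514 genes, and a gene is called at an adjusted p under 0.05. Both groups had higher Foxp3 than each of the other 4 sites in a fit of all 18 libraries, where spleen stood at 139.7 ± 9.03, liver at 149 ± 15.8, bone marrow at 148 ± 3.08 and blood at 88.6 ± 3.39 TPM. In that fit, lung was called higher for 18% of 16694 genes against spleen, 17.3% against liver, 13.2% against bone marrow and 17.3% against blood, and lower for 22.8%, 17.6%, 30.3% and 26.4%. Lymph node was called higher for 9.87%, 21.6%, 8.89% and 21% of genes against the same sites, and lower for 4.44%, 9.45%, 13.7% and 16.4%. Cd4 was 247, 324 and 276 TPM in lung and 411, 397 and 401.4 TPM in lymph node. The general T cell gene Cd3e was 432 ± 24.5 TPM in lung and 691 ± 6.52 TPM in lymph node, so both genes were abundant in every library. Both were called lower in lung in the fit of all 18 libraries, Cd4 by -0.52 and Cd3e by -0.68 log2 units. The direction of Cd4 reversed when scaled to T cell genes. Xist was at or under 0.02 TPM and Ddx3y at 129, 122 and 104 TPM in lung and 73.9, 68.7 and 70.1 TPM in lymph node, so all 6 libraries carried a Y-linked transcript.

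The lymph node libraries were the deeper ones. One read of a 1 kb transcript was worth 0.2319 TPM in lung and 0.0866 TPM in lymph node. Reads recovered from these steps over 12107 genes with a single transcript numbered 397126 to 443574 in lung and 790450 to 949957 in lymph node. Genes above 0 TPM numbered 15219 to 15606 in lung and 18985 to 19297 in lymph node. Replicates were also tighter in lymph node, with a median coefficient of variation of 2.55% against 8% in lung among genes of at least 100 TPM. Mitochondrial genes took 8.09 to 8.92% of the TPM in lung and 4.90 to 5.11% in lymph node. A value of 0 in lung is weaker evidence of absence than one in lymph node, and low genes are less precise in lung.

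Transcripts of other cells were more abundant in the lung libraries. A list of 16 macrophage markers (Chil3, Ear2, Lyz2, Cd14 and others) summed to 1742 to 1912 TPM in lung and 17.2 to 22.2 TPM in lymph node, and 13 of its 14 tested genes were called higher. Neutrophil and monocyte markers summed to 844 to 952 TPM against 73.4 to 124 TPM (11 of 14 higher), erythroid markers to 1430.2 to 1550.0 TPM against 74.3 to 76.8 TPM (6 of 7 higher), and lung epithelial markers to 284 to 342 TPM against 26 to 30.9 TPM (7 of 11 higher). The epithelial secretoglobin Scgb1a1 was 264, 197 and 215 TPM in lung and listed at 0 in all 3 lymph node libraries, as were 10 of the 16 epithelial markers. Scgb1a1 made up most of the epithelial sum in lung, with a mean of 225 TPM beside a mean sum of 311 TPM. In lung, 2 epithelial markers (Scgb3a1 and Slc34a2) were listed at 0 in all 3 libraries, and 1 tested marker was lower. B cell markers summed to 221 to 239 TPM in lung and 288 to 290.3 TPM in lymph node. Of 12 tested, 0 were higher and 4 lower, beside 29.8% lower among all genes tested. Their median log2 fold change was -0.35, beside -0.25 for all genes tested and -0.61 for general T cell genes. Of 13 tested CD8 T and natural killer cell markers, 7 were higher and 2 lower. Cd8a, among the latter, was 2.27 ± 0.97 TPM in lung and 18.8 ± 0.69 TPM in lymph node. Across the series, the sum of the macrophage markers was 1835 ± 86.3 TPM in lung, 4158 ± 53.4 TPM in bone marrow, 8537 ± 113 TPM in peripheral blood, 216 ± 13.5 TPM in spleen, 75.5 ± 23.7 TPM in liver and 19.8 ± 2.51 TPM in lymph node. Lyz2 made up most of the sum in bone marrow (2809 ± 67.3 TPM) and blood (7469 ± 107 TPM). Single markers had other orders, with Chil3 at 1120.0 ± 25.3 TPM in bone marrow, 481 ± 34.9 TPM in lung and 169.9 ± 13.1 TPM in blood, and Ear1 at 51 ± 5.7 TPM in lung, 27.4 ± 3.29 TPM in bone marrow and 1.44 ± 0.404 TPM in blood. Mean erythroid sums were lower in lung (1476 TPM) than in spleen (1964), blood (2935), bone marrow (6787) and liver (11478). Those of neutrophils and monocytes were 883 TPM in lung, 646 in spleen, 367 in liver, 19995 in blood and 45123 in bone marrow. Those of lung epithelium were 311 TPM in lung, 161 in blood, 86.3 in bone marrow, 59.5 in spleen and 24.9 in liver. Scgb1a1 itself was listed at 0 in blood, bone marrow and liver.

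Across all genes, 2322 were called higher in lung (16% of those tested) and 4325 lower (29.8%), together 6647 genes (45.8%). Of these, 1326 were higher (9.14%) and 2133 lower (14.7%) by at least 1 log2 unit. The 3 lung and the 3 lymph node libraries did not overlap for 59% of genes. The median log2 fold change of all genes was -0.25, and this offset, like the split between directions, depended on the scale. Higher calls made up 34.9% of the total as deposited, 50.8% with median ratio scaling (3046 higher, 2955 lower), 55.6% after a correction for transcript GC content (3117 higher, 2488 lower) and 75.6% when libraries were scaled to general T cell genes (4768 higher, 1541 lower). The lower count was 2849, 2774 and 2796 without lymph node replicate 1, 2 and 3, and 4559, 4468 and 4591 without lung replicate 1, 2 and 3.

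**Figure D1:**
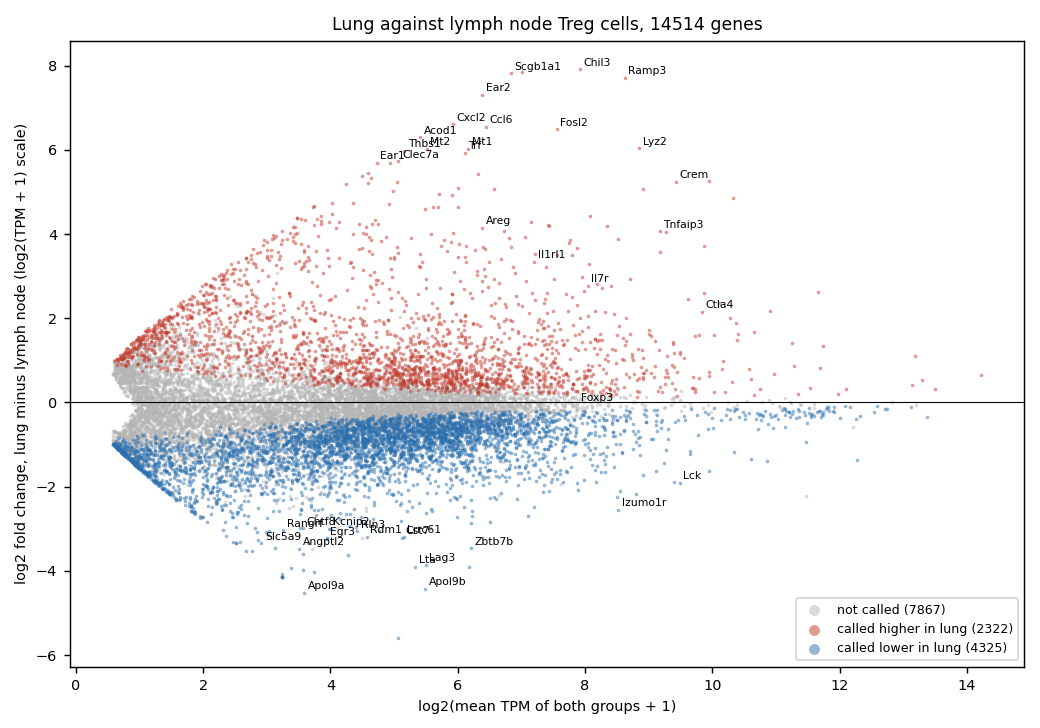
Log2 fold change (lung minus lymph node, log2(TPM + 1) scale) against the log2 of the mean TPM of both groups plus 1, 1 point per gene for the 14514 genes tested. Red points are the 2322 genes called higher in lung, blue points the 4325 called lower, and Ramp3, Fosl2 and Crem stand far above zero at high mean TPM while Foxp3 lies on the zero line.

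The offset moved with base composition. When genes were put in 10 groups of equal size by GC content of their transcripts, the median log2 fold change was 0.055 in the group of lowest GC (331 higher, 210 lower) and -0.56 in the group of highest GC (160 higher, 625 lower). Direction for a gene list is therefore given below with its counts under the other scales where they reverse the balance. The counts of each list stand beside 16% higher and 29.8% lower among all genes tested. After the GC correction, 173 of 183 genes named in the text stayed on the same side of the threshold. The 15 genes named below as lower held 50.1 (Cst7) to 61.4% (Rln3) GC. The 15 named as higher held 42.5 (Clec7a) to 56.1% (Ramp3), and the median of genes tested was 50.3%. Why the fold change moved with GC content was not tested.

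**Figure D2:**
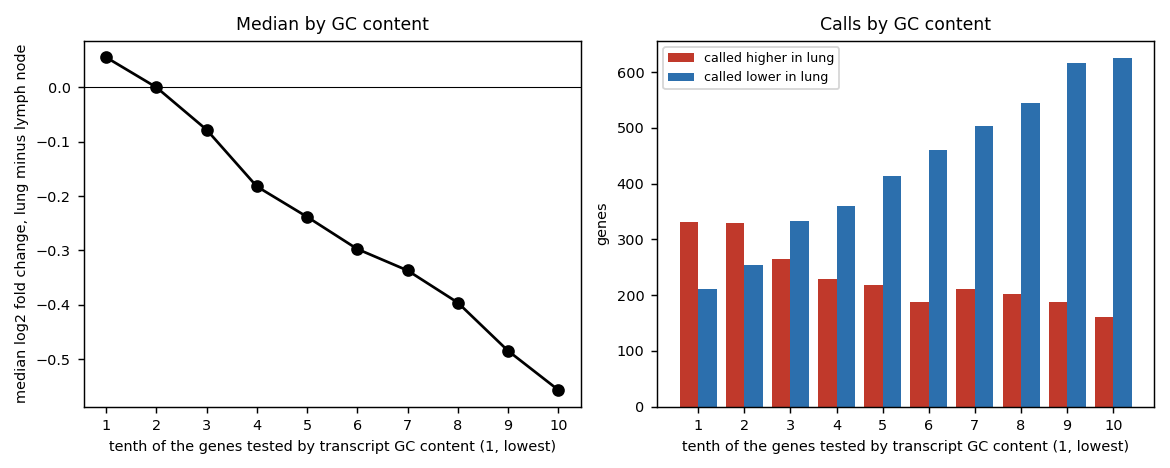
Left, median log2 fold change (lung minus lymph node) of genes grouped by transcript GC content, from the lowest (1) to the highest (10). Right, the number of genes called in each direction in each group, where higher calls go from 331 to 160 and lower calls from 210 to 625.

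The 15 genes named by size of change in the lung direction, all with a mean of at least 10 TPM and no overlap, fell into 3 kinds. A first kind, 5 genes, is on the marker lists of other cells. Chil3, a chitinase-like protein of macrophages, was 498, 504 and 441 TPM in lung and 0.32, 1.42 and 1.49 TPM in lymph node (log2 fold change 7.91 ± 0.25, adjusted p = 2.89e-06). Ear2 (165 ± 3.82 TPM in lung), Ear1 (51 ± 5.7 TPM) and the lysozyme Lyz2 (905 ± 31.7 TPM, against 13.1 ± 3.37 TPM in lymph node) are macrophage markers too, and Scgb1a1 is the epithelial one given above. Ear1 was listed at 0 in all 3 lymph node libraries, and Ear2 in 2 of them. A second kind comprises genes that myeloid cells are known to express strongly though they are on no list. The neutrophil chemokine Cxcl2 was 119 ± 18 TPM in lung and 0.23 ± 0.0569 TPM in lymph node, the chemokine Ccl6 172 ± 7.22 TPM in lung and 0.86 ± 0.24 TPM in lymph node, the itaconate-producing enzyme Acod1 83.2 ± 1.88 TPM in lung and 0.0733 ± 0.0351 TPM in lymph node and the fungal pattern receptor Clec7a 64.8 ± 8.35 TPM in lung and 0.25 ± 0.26 TPM in lymph node. Clec7a and Ccl6 were higher still in blood, at 451 ± 16 and 869.8 ± 25.5 TPM, whereas Acod1 was lower there (6.94 ± 0.33 TPM), as was Cxcl2 (40.1 ± 2.94 TPM). Thrombospondin (Thbs1) was 69.3 ± 1.73 TPM in lung and 0.12 ± 0.0436 TPM in lymph node, and transferrin (Trf) was 135 ± 36.8 TPM in lung and 1.35 ± 1.21 TPM in lymph node. The part of other cells in these values was not tested.

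The remaining genes of the 15 (Mt1, Mt2, Ramp3 and Fosl2) are on no marker list of other cells. The metallothionein Mt1, a metal-binding protein, was 133, 133 and 154 TPM in lung and 1.84, 0.38 and 1.55 TPM in lymph node (log2 fold change 6.03 ± 0.28, adjusted p = 1.27e-05). Its neighbour Mt2 was 95.3, 63.5 and 108 TPM in lung and 0.31, 0.87 and 0 TPM in lymph node (log2 fold change 6.02 ± 0.30, adjusted p = 1.72e-05). Mt1 stood at 37.2 ± 3.34 TPM in bone marrow and 5.35 ± 0.36 TPM in blood, and lung was higher than each of the other 4 sites for both genes. Ramp3 and Fosl2 complete the set and are described with their pathways below.

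**Figure D3:**
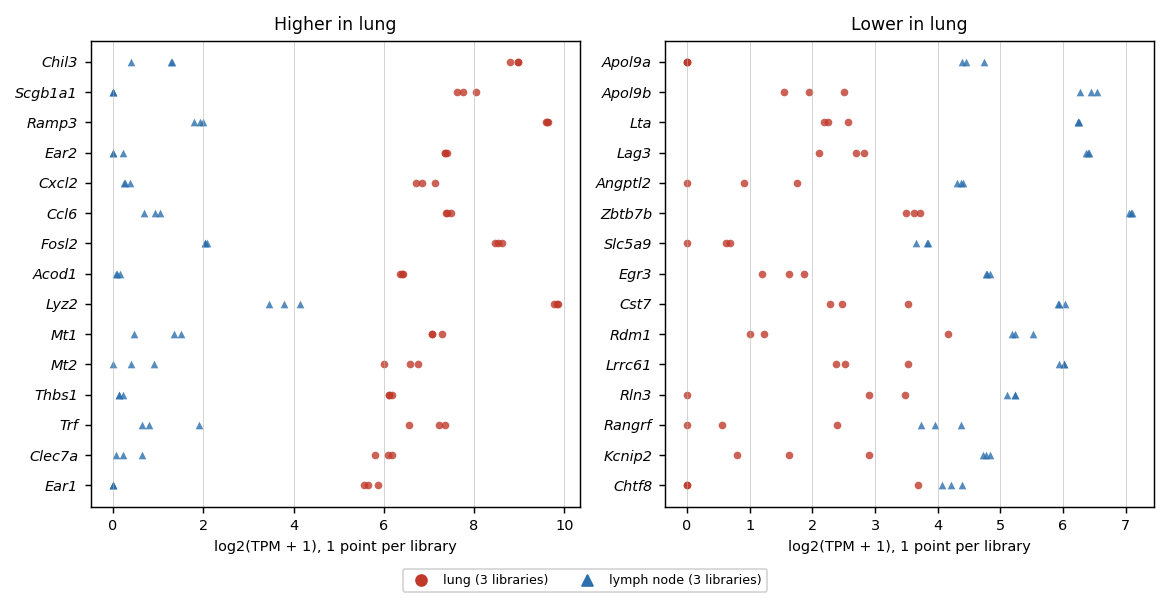
Values of the 30 genes with the largest changes, as log2(TPM + 1), 1 point per library (red circles, lung; blue triangles, lymph node). The 30 were chosen among genes without overlap between the 3 lung and the 3 lymph node libraries. The lung points of Rdm1, Rln3 and Chtf8 are the most scattered.

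In the other direction, the genes with the largest changes included Lag3, Lta and Zbtb7b. Lag3, an inhibitory receptor of activated and regulatory T cells that binds MHC class II, was 3.32, 6.07 and 5.5 TPM in lung and 83.6, 84.03 and 81.6 TPM in lymph node (log2 fold change -3.85 ± 0.20, adjusted p = 1.92e-05). Lta, the cytokine lymphotoxin alpha, was 4.9, 3.57 and 3.76 TPM in lung and 74.1, 75.5 and 74.3 TPM in lymph node (log2 fold change -3.91 ± 0.14, adjusted p = 4.4e-06). Zbtb7b (ThPOK), the factor that keeps the CD4 lineage, was 10.3, 11.2 and 12.2 TPM in lung and 135, 136 and 131 TPM in lymph node (log2 fold change -3.47 ± 0.095, adjusted p = 1.48e-06). For these 3 genes (ENSMUSG00000030124, chr6:124904361-124911705, minus strand; ENSMUSG00000024402, chr17:35203165-35205351, minus strand; ENSMUSG00000028042, chr3:89377644-89394776, minus strand) the groups were far apart compared with the spread of either. Lymph node was higher than each of the other 4 sites for Lag3 and Lta, while lung was lower than each of the other 4 sites for Lta and Zbtb7b. Zbtb7b was 98.7 ± 12.3 TPM in spleen, 91.9 ± 23.6 TPM in liver, 134 ± 12.3 TPM in bone marrow and 100.1 ± 5.05 TPM in blood, so the low value is that of lung.

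Egr3, an early growth response factor induced by T cell receptor signals, was 1.3, 2.66 and 2.08 TPM in lung and 27.6, 26.5 and 26.2 TPM in lymph node (log2 fold change -3.23 ± 0.21, adjusted p = 5.72e-05). Cst7 (cystatin F, an inhibitor of granule proteases) was 6.29 ± 3.64 TPM in lung and 61.4 ± 2.82 TPM in lymph node, and Angptl2, a secreted angiopoietin-like protein, 1.08 ± 1.19 TPM in lung and 19.6 ± 0.78 TPM in lymph node. The interferon-inducible Apol9b was 4.66, 1.93 and 2.85 TPM in lung and 76.5, 91.7 and 86.5 TPM in lymph node (log2 fold change -4.42 ± 0.25, adjusted p = 2.74e-05). Its near-identical copy Apol9a was listed at 0 in all lung libraries and at 20.8, 19.9 and 25.7 TPM in lymph node, so the split between the copies is uncertain. The sodium-glucose cotransporter gene Slc5a9 was 0.38 ± 0.33 TPM in lung and 12.7 ± 0.97 TPM in lymph node, Lrrc61 6.48 ± 3.52 TPM in lung and 62.5 ± 1.81 TPM in lymph node, Kcnip2 3.11 ± 3.02 TPM in lung and 26.4 ± 1.19 TPM in lymph node and Rangrf 1.57 ± 2.32 TPM in lung and 15.5 ± 3.86 TPM in lymph node. The last 3 of the 15 rest on scattered lung values. Rdm1 was 1, 16.9 and 1.34 TPM in lung and lost its call without any single lymph node library (adjusted p 0.062 to 0.0692), without lung replicate 1 (0.0531) or without lung replicate 3 (0.0582). Rln3 was 0, 10.1 and 6.49 TPM in lung, lost its call without any single lymph node library (0.0795 to 0.0831) and moved to -1.99 without lung replicate 1. Chtf8 (ENSMUSG00000117748, chr8:106883890-106893593, minus strand) overlaps a second gene model of the same name, was 11.9, 0 and 0 TPM in lung and lost its call in 5 of the 6 fits that leave out a library (0.112 to 0.127); without lung replicate 1 the log2 fold change was -4.22.

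Genes of the Treg core programme split in both directions: 7 of 20 were called higher, 9 lower and 4 were not called (median -0.13). Among those higher was Ctla4, the inhibitory receptor that removes costimulatory ligands from antigen-presenting cells, at 1554, 1460.4 and 1443 TPM in lung and 348, 328 and 327 TPM in lymph node (log2 fold change 2.15 ± 0.044, adjusted p = 6.15e-07). Tigit, another inhibitory receptor, was 453 ± 36.2 TPM in lung and 145 ± 2.75 TPM in lymph node (log2 fold change 1.63 ± 0.068, adjusted p = 8.05e-06). Lrrc32 (GARP), which holds latent TGF-beta on the Treg surface, was 268 ± 21.2 TPM in lung and 88.8 ± 0.78 TPM in lymph node (log2 fold change 1.58 ± 0.071, adjusted p = 1.1e-05). The TNF receptor family members Tnfrsf4 (OX40) and Tnfrsf18 (GITR) were higher by 1.07 ± 0.047 and 1.00 ± 0.038 log2 units. No lung value of these 5 genes overlapped a lymph node value, beside 59% of all genes tested without overlap.

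The core genes that were lower in lung included the interleukin-2 receptor alpha chain. Il2ra (CD25) was 72.5, 83.9 and 72.3 TPM in lung and 225, 237 and 239 TPM in lymph node (log2 fold change -1.61 ± 0.078, adjusted p = 1.44e-05). The folate receptor family member Izumo1r was 97.8, 128 and 96.9 TPM in lung and 627, 615 and 638 TPM in lymph node (log2 fold change -2.55 ± 0.11, adjusted p = 9.04e-06). The orphan receptor Gpr83 was 7.73 ± 1.53 TPM in lung and 59.3 ± 1.94 TPM in lymph node (log2 fold change -2.80 ± 0.15, adjusted p = 2.52e-05). Ikzf4 (Eos), a partner of Foxp3 in repression, fell to 31.2 ± 5.79 TPM from 88.2 ± 6.15 TPM, and the integrin alpha E chain Itgae to 39.3 ± 3.51 TPM from 104 ± 2.98 TPM. Ikzf2 (Helios) was 128 ± 12.3 TPM against 148 ± 5.94 TPM and Entpd1 (CD39) 24.9 ± 9.88 TPM against 24.6 ± 3.1 TPM, neither called in the main comparison. Ikzf2 was called lower without lung replicate 2 (-0.28, adjusted p = 0.0265) and in the fit of all 18 libraries (adjusted p = 0.0404), but higher when scaled to T cell genes (0.40, adjusted p = 0.0081). The core list counted 10 higher and 6 lower when scaled to general T cell genes and 9 higher and 8 lower after GC correction, so its balance turned with the scale.

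Effector and tissue Treg genes were mostly higher in lung: 21 of 30 were called higher and 5 lower, with a median of 0.89. Areg was 139, 175 and 158 TPM in lung and 6.98, 9.55 and 7.24 TPM in lymph node (log2 fold change 4.15 ± 0.15, adjusted p = 4.37e-06). Il1rl1 (ST2) was 290.2, 255 and 254 TPM in lung and 27.6, 26.7 and 22.1 TPM in lymph node (log2 fold change 3.34 ± 0.11, adjusted p = 2.93e-06). Gata3, which drives Il1rl1 in Treg cells, was 182, 185 and 199 TPM in lung and 54.5, 56.1 and 60.8 TPM in lymph node (log2 fold change 1.71 ± 0.073, adjusted p = 9.15e-06). The nuclear receptor Rora was 152 ± 13.5 TPM in lung and 15.9 ± 0.73 TPM in lymph node (log2 fold change 3.18 ± 0.097, adjusted p = 2.5e-06). All 3 lung libraries stood above all 3 lymph node libraries for each of these 4 genes. The groups did not overlap, in either direction, for 59% of all genes tested.

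Further members of this group pointed the same way. The transcriptional regulators Nfil3 and Id2 were higher by 3.00 ± 0.076 and 2.94 ± 0.093 log2 units, and Batf, an AP-1 family factor needed by tissue Treg cells, by 0.91 ± 0.073. Pparg, a lipid-sensing receptor first known in Treg cells from fat, was 10.99, 11.4 and 12.7 TPM in lung and 0.56, 0.44 and 0 TPM in lymph node. It averaged 9.12 TPM in liver, 7.1 TPM in blood, 2.89 TPM in bone marrow and 1.37 TPM in spleen. The part of macrophage transcripts in the Pparg values was not tested. The checkpoint receptor Pdcd1 (PD-1) was 276, 309 and 301 TPM in lung and 65.3, 63.8 and 65.6 TPM in lymph node (log2 fold change 2.17 ± 0.064, adjusted p = 2.14e-06). Tnfrsf9 (4-1BB) was 423 ± 16.5 TPM in lung and 101 ± 9.86 TPM in lymph node, Icos 422 ± 10.7 TPM in lung and 176 ± 3.5 TPM in lymph node, Klrg1 76.6 ± 13.4 TPM in lung and 22.1 ± 1.48 TPM in lymph node and the interleukin-18 receptor chain Il18r1 177 ± 16.3 TPM in lung and 70.3 ± 2.02 TPM in lymph node. Il10, the suppressive cytokine, differed less, at 35.96, 41.01 and 30.1 TPM in lung and 18.7, 19.7 and 23.97 TPM in lymph node (log2 fold change 0.75 ± 0.16, adjusted p = 0.00875). Of those that were lower, Lag3 is given above. Ebi3, a subunit of interleukin-35, was 7.08 ± 1.51 TPM in lung and 26.9 ± 3.27 TPM in lymph node, the enkephalin precursor Penk 23.2 ± 5.51 TPM in lung and 50.8 ± 2.55 TPM in lymph node and Maf 83.5 ± 5.52 TPM in lung and 119.6 ± 1.9 TPM in lymph node. Maf lost its call after GC correction (-0.23, adjusted p = 0.0504) and when scaled to T cell genes (0.095, adjusted p = 0.348).

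Group 2 innate lymphoid cells also express Il1rl1, Gata3, Rora and Areg, and their markers were measured beside them. Of the 6 tested genes of the list of innate lymphoid and mast cell markers, Calca alone was called higher (93.1 ± 31.1 TPM in lung, 2.7 ± 0.73 TPM in lymph node). Il13 was lower (listed at 0 in all lung libraries, 1.78 ± 0.36 TPM in lymph node), as was Il17rb (2.29 ± 0.25 against 9.49 ± 1.8 TPM). Il5 was 0, 1.57 and 2.03 TPM in lung and 0.19, 0 and 0 TPM in lymph node and was called only without lung replicate 1 (1.40, adjusted p = 0.0126). At the other sites Il1rl1 was 156 ± 22 TPM in liver, 114 ± 2.19 TPM in bone marrow, 17.4 ± 2.86 TPM in spleen and 12.5 ± 0.97 TPM in blood. Areg was 91.6 ± 9.78 TPM in liver, 12.3 ± 3.32 TPM in bone marrow, 6.74 ± 1.12 TPM in spleen and 0.47 ± 0.0874 TPM in blood. Lung was higher than each of the other 4 sites for Il1rl1, Gata3, Areg, Nfil3, Id2, Pdcd1 and Tnfrsf9.

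Among suppressive and repair factors, 11 of 20 tested were higher and 6 lower (median 0.45). The protease granzyme B (Gzmb) was 155, 144 and 124 TPM in lung and 15.8, 15.4 and 14.9 TPM in lymph node (log2 fold change 3.11 ± 0.11, adjusted p = 3.49e-06), and lung was higher than each of the other 4 sites. Granzyme A (Gzma), which is also on the list of CD8 T and natural killer cell markers, was 42.2 ± 7.11 TPM in lung and 1.62 ± 0.101 TPM in lymph node. Lgals1 (galectin-1) was 533 ± 16.9 TPM in lung and 335 ± 1.79 TPM in lymph node and the ectoenzyme Entpd1 was not called. Vegfa was 6.4, 13.96 and 8.29 TPM in lung and 0.48, 2.45 and 1.2 TPM in lymph node (log2 fold change 2.17 ± 0.41, adjusted p = 0.00545).

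**Figure D4:**
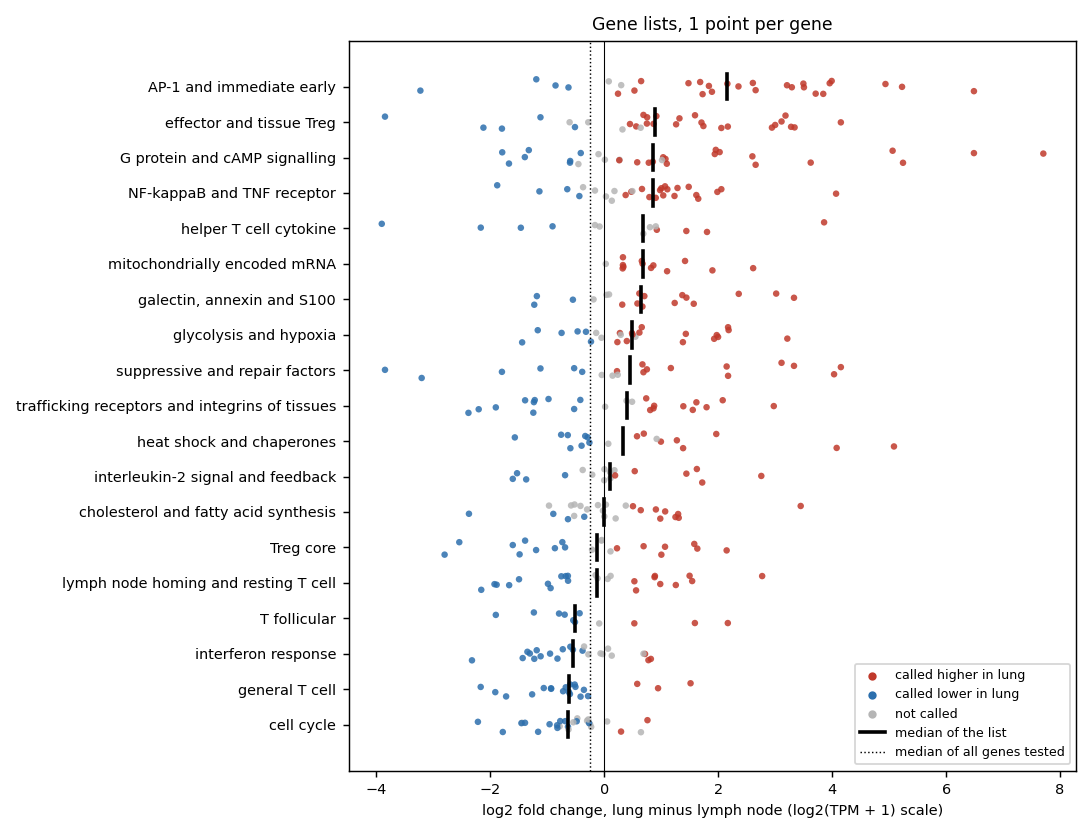
Log2 fold change (lung minus lymph node, log2(TPM + 1) scale) of each tested gene of the 19 pathway lists, 1 point per gene (red, called higher; blue, called lower; grey, not called). Short black bars are list medians and the dotted line is the median of all genes at -0.25; the AP-1 and immediate early list has the highest median (2.16) and cell cycle the lowest (-0.63).

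G protein and cyclic AMP signalling held Ramp3, Fosl2 and Crem, which were among the most separated genes at high TPM. Receptors that couple to the stimulatory G protein raise cyclic AMP, which activates protein kinase A and the CREB family of factors. CREB targets include the inducible repressor Crem, the kinase Sik1 and the phosphodiesterases that break cyclic AMP down. Of 29 tested genes, 17 were higher and 7 lower, with a median of 0.85.

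Among receptors, the largest difference was that of Ramp3. This membrane protein pairs with the calcitonin receptor-like receptor Calcrl and sets which peptide (adrenomedullin or calcitonin gene-related peptide) it binds. Ramp3 (ENSMUSG00000041046, chr11:6658521-6677475, plus strand) was 794, 769.7 and 784 TPM in lung and 2.8, 2.99 and 2.49 TPM in lymph node (log2 fold change 7.71 ± 0.084, adjusted p = 4.92e-08). The lowest lung library thus stood at 769.7 TPM and the highest lymph node library at 2.99 TPM. At the other sites Ramp3 was 93 ± 5.48 TPM in liver, 10.4 ± 2.06 TPM in bone marrow, 4.09 ± 1.22 TPM in spleen and 2.62 ± 0.66 TPM in blood, and lung was higher than each. Its paralogue Ramp1 went the other way, at 13.1, 13.6 and 12.8 TPM in lung and 43.8, 44.2 and 44.4 TPM in lymph node (log2 fold change -1.67 ± 0.099, adjusted p = 3.39e-05). Calcrl itself was 9.75, 12.4 and 16.5 TPM in lung and 11.8, 9.86 and 9.37 TPM in lymph node, with overlapping groups and no call except when scaled to T cell genes (0.83, adjusted p = 0.0218). Calca, the gene of calcitonin gene-related peptide and calcitonin, was 61.9, 93.5 and 124 TPM in lung and 2.01, 2.62 and 3.47 TPM in lymph node (log2 fold change 4.63 ± 0.28, adjusted p = 3.71e-05).

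Other receptors of this pathway were called in both directions. The adenosine receptor Adora2a was 216, 184 and 146 TPM in lung and 42.4, 53.2 and 43.7 TPM in lymph node (log2 fold change 1.94 ± 0.16, adjusted p = 0.00016). The receptor for vasoactive intestinal peptide, Vipr1, was lower at 1.88 ± 0.22 TPM in lung and 8.95 ± 0.42 TPM in lymph node, and the prostaglandin receptor Ptger4 at 37.4 ± 1.37 TPM in lung and 57.2 ± 1.38 TPM in lymph node, a difference that was lost when scaled to T cell genes. The stimulatory G protein subunit Gnas was 432 ± 17.9 TPM in lung and 429 ± 4.21 TPM in lymph node, not called as deposited but higher in lung by 0.24 to 0.62 log2 units under the 3 other scales. Downstream, the cyclase Adcy7 and the kinase subunit Prkaca were lower, with log2 fold changes of -1.39 ± 0.10 and -1.33 ± 0.11.

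Several targets and brakes of the pathway were higher in lung by a wide margin. Crem was 1300.5, 1365 and 1345 TPM in lung and 36.05, 34.1 and 32.95 TPM in lymph node (log2 fold change 5.24 ± 0.054, adjusted p = 4.64e-08). Rgs2, which shortens G protein signals, was 1068, 865 and 853 TPM in lung and 28.1, 27.9 and 24.3 TPM in lymph node (log2 fold change 5.06 ± 0.11, adjusted p = 6.15e-07). Sik1 was 129.8, 142 and 155 TPM in lung and 10.5, 10.6 and 10.7 TPM in lymph node (log2 fold change 3.62 ± 0.098, adjusted p = 1.41e-06). The phosphodiesterases Pde4d (125 ± 6.18 TPM in lung and 19.8 ± 1.18 TPM in lymph node) and Pde3b (27.2 ± 4.49 TPM in lung and 5.89 ± 0.62 TPM in lymph node) were higher too, and Pde4b and Pde7a by 1.10 and 1.07 log2 units. Crem was 503 ± 26.2 TPM in liver and 11.8 ± 4.43 TPM in blood, and Rgs2 486 ± 72.5 TPM in liver and 379 ± 15.7 TPM in blood. Lung was higher than each of the other 4 sites for Crem, Rgs2, Sik1, Pde4d and Adora2a.

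**Figure D5:**
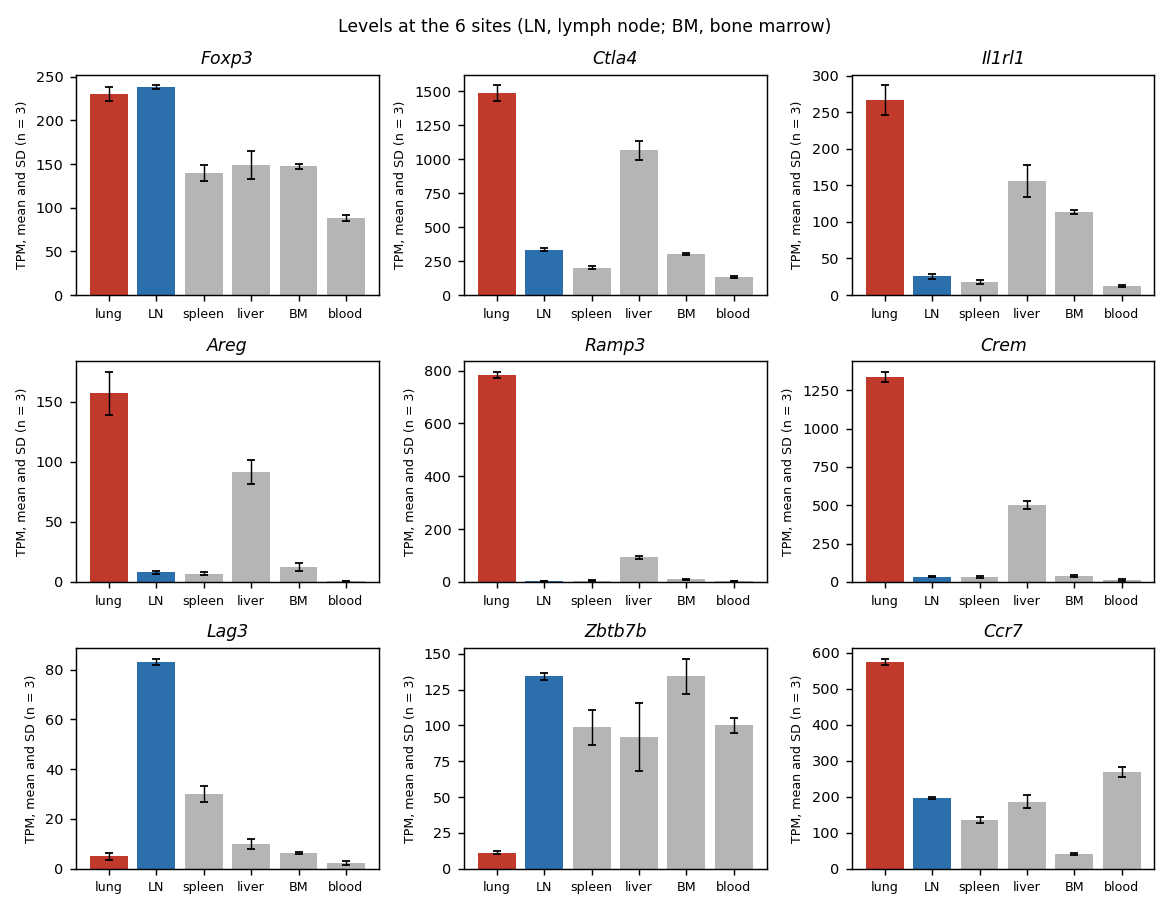
Mean TPM (bars) and SD (n = 3 libraries) of 9 genes at the 6 sites (red, lung; blue, lymph node; grey, other sites), on linear axes from 0. Ramp3, Crem, Areg, Il1rl1 and Ctla4 are highest in lung and next in liver, Lag3 is highest in lymph node, Zbtb7b is low in lung alone, and Foxp3 is at similar levels at both compared sites.

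The AP-1 and immediate early genes had the highest median of the 19 lists, at 2.16, with 23 of 29 tested genes higher and 4 lower. These genes are transcribed within minutes of many stimuli, and tissue dissociation and sorting are among the stimuli known to induce them. Fosl2, a Fos family subunit of AP-1, was 351, 391 and 369 TPM in lung and 3.22, 3.1 and 3.08 TPM in lymph node (log2 fold change 6.49 ± 0.089, adjusted p = 1.58e-07). Fosb was 108, 118 and 123 TPM in lung and 2.86, 2.78 and 2.81 TPM in lymph node (log2 fold change 4.93 ± 0.11, adjusted p = 7.42e-07). Fos was 472, 473 and 513 TPM in lung and 48.7, 49.2 and 48.3 TPM in lymph node (log2 fold change 3.29 ± 0.058, adjusted p = 3.71e-07). Junb was 1609 ± 89.9 TPM in lung and 263 ± 4.62 TPM in lymph node, Jun 76.9 ± 6.02 TPM in lung and 23.2 ± 1.41 TPM in lymph node and Atf3 63.4 ± 26.1 TPM in lung and 0.66 ± 0.36 TPM in lymph node. No lung library overlapped a lymph node library for any of these AP-1 genes, which also held for 59% of all genes tested.

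Orphan nuclear receptors and phosphatases followed. Nr4a1, a reporter of T cell receptor signals, was 731, 793 and 832 TPM in lung and 238, 233 and 239 TPM in lymph node (log2 fold change 1.73 ± 0.054, adjusted p = 2.8e-06). Nr4a2 was 51 ± 3.1 TPM in lung and 2.62 ± 0.13 TPM in lymph node and Nr4a3 142 ± 13.1 TPM in lung and 21.8 ± 2.31 TPM in lymph node. The MAP kinase phosphatase Dusp1 was 505, 497 and 559.7 TPM in lung and 116, 119 and 112 TPM in lymph node (log2 fold change 2.16 ± 0.061, adjusted p = 1.85e-06), Dusp5 300.3 ± 6.4 TPM in lung and 31.7 ± 1.41 TPM in lymph node and the stress-response phosphatase subunit Ppp1r15a 409 ± 23.9 TPM in lung and 35.2 ± 3.61 TPM in lymph node. The 4 genes that were lower were Egr3 (above), Egr2 (7.51 ± 1.04 TPM in lung and 18.4 ± 1.98 TPM in lymph node), Egr1 (24.9 ± 3.02 TPM in lung and 38.9 ± 0.57 TPM in lymph node) and the nuclear phosphatase Dusp2 (133 ± 6.84 TPM in lung and 241 ± 8.02 TPM in lymph node). All 3 Egr genes of the list were thus below lymph node while all 3 Nr4a genes were above it; Egr1 lost its call after GC correction (-0.22, adjusted p = 0.156) and when scaled to T cell genes (-0.03, adjusted p = 0.84).

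Several immediate early genes were higher elsewhere than in lung. Fos was 2198 ± 12.9 TPM in bone marrow and 844 ± 8.35 TPM in blood, Nr4a1 3289.7 ± 135 TPM in liver, and Dusp1 1200.5 ± 8.72 TPM in bone marrow, all above lung. Fosl2 was 127 ± 17.8 TPM in liver and 64.7 ± 2.59 TPM in blood, both below lung. Lymph node was lower than each of the other 4 sites for Fos, Fosb, Fosl2, Junb, Atf3 and Dusp1. The part of cell preparation in these differences cannot be told apart from that of the organ. The part of myeloid transcripts in the values of the immediate early genes was not tested.

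Promoters of the cyclic AMP and the immediate early genes, lists that share Fosl2 and Nr4a3, were read from RefSeq (build GRCm38.p6) for the cyclic AMP response element TGACGTCA and its core TGACG, on either strand, in windows from 250 bases before to 50 after the start site. The core is part of the full element. Windows were found for 21 of the 23 immediate early genes called higher. The full element was in 3 of them (Btg2, Dusp1 and Ppp1r15a; 14.3%) and the core in 14 (66.7%), against 2.03% and 23.0% of the 27025 genes with a window and 3.62% and 35.8% of the 9838 tested genes with one. Among all genes called higher with a window, 4.97% held the full element, against 2.39% of those called lower. The core was in 41.9% of the former and 31.6% of the latter. Of the 15 genes named as higher, 12 had a window, 0 held the full element and 1 (Mt1) held the core. The AP-1 site TGANTCA was in none of the 21 genes, and in 8.97% of all genes and 6.06% of tested genes with a window. Of the 17 cyclic AMP genes called higher, 10 had a window and 1 (Prkar1a) held the full element. A match is a description of these letters and not of a factor bound there. The 150 bases before the start site of 4 genes that were higher in lung are shown, with matches to the element or its core in capitals. They were picked because they hold these letters at different distances from the start, and Areg is on neither list.
Areg, chr5:91139449-91139598, plus strand: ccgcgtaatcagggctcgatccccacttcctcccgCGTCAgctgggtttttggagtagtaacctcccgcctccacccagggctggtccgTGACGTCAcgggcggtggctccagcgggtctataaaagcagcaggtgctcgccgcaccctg
Dusp1, chr17:26508473-26508622, minus strand: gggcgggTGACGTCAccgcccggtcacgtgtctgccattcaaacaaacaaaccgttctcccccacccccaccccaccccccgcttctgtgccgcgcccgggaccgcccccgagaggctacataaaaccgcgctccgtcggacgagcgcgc
Ppp1r15a, chr7:45526269-45526418, minus strand: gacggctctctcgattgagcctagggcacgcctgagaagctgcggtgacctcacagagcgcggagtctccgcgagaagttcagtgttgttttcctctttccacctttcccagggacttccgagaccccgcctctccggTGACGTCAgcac
Nr4a1, chr15:101266696-101266845, plus strand: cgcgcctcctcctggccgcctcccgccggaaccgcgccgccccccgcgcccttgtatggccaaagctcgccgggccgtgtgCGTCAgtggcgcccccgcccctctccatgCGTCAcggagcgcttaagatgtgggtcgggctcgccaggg
The full element began 61 bases before the start site in Areg, 143 bases before it in Dusp1 and 12 bases before it in Ppp1r15a. In Nr4a1 the core alone occurred, at 69 and 40 bases before the start.

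Genes of NF-kappaB and TNF receptor signalling were higher in 18 of 28 cases and lower in 4 (median 0.85). The ubiquitin-editing inhibitor Tnfaip3 (A20) was 1082, 1099 and 1082 TPM in lung and 64.6, 64.7 and 62.5 TPM in lymph node (log2 fold change 4.07 ± 0.042, adjusted p = 4.64e-08). The inhibitor gene Nfkbia, itself an NF-kappaB target, was 774 ± 59.4 TPM in lung and 252 ± 7.25 TPM in lymph node, and the nuclear cofactor Nfkbiz 246 ± 8.69 TPM in lung and 61.4 ± 3.59 TPM in lymph node. The subunit genes Rel and Nfkb2 were higher by 1.65 ± 0.10 and 1.48 ± 0.052 log2 units, and the apoptosis inhibitor Birc3 by 1.28 ± 0.068. Ltb (lymphotoxin beta), which maintains lymph node stroma, was lower, at 281, 286 and 296 TPM in lung and 1057, 1056 and 1074 TPM in lymph node (log2 fold change -1.88 ± 0.036, adjusted p = 5.13e-07). With Lta above, both lymphotoxin genes were lower in lung, and for both genes lung was below each of the other 4 sites. Tnf, their neighbour on the chromosome, was 25.8, 21.9 and 18.4 TPM in lung and 26.9, 25.4 and 21.7 TPM in lymph node and was not called. Cflar, an inhibitor of death receptor signals, was lower, with a log2 fold change of -1.14 ± 0.091.

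Chaperone genes split evenly, with 8 of 18 higher and 8 lower. The inducible Hsp70 genes Hspa1a and Hspa1b, a near-identical pair whose separate values are uncertain, were 114, 118 and 138 and 202, 206 and 187 TPM in lung, against 2.9, 2.17 and 2.96 and 10.8, 11.7 and 9.99 TPM in lymph node. Their cochaperone Bag3 was 46.5 ± 2.98 TPM in lung and 11.1 ± 0.26 TPM in lymph node and Hsp90aa1 962 ± 89.2 TPM in lung and 367 ± 11 TPM in lymph node. The cochaperone Stip1 was lower at 55.6 ± 6.52 TPM in lung and 166 ± 4 TPM in lymph node, and constitutive Hspa8 at 1319 ± 62.4 TPM in lung and 2056 ± 50.8 TPM in lymph node. The split depended on the scale: with T cell gene scaling 13 were higher and 1 lower. Hspa1a was 1495 ± 128 TPM in liver, above lung.

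Genes of lymph node homing and resting T cells did not move as a block, with 9 of 24 higher and 11 lower (median -0.14). The entry receptor Ccr7 was 565, 581 and 578 TPM in lung and 198, 197 and 195 TPM in lymph node (log2 fold change 1.54 ± 0.038, adjusted p = 9.59e-07), and lung was above each of the other 4 sites. The egress receptor S1pr1 was 525, 492 and 487 TPM in lung and 213, 209 and 206 TPM in lymph node (log2 fold change 1.25 ± 0.047, adjusted p = 5.07e-06), and its activator Klf2 343 ± 14.5 TPM in lung and 185 ± 6.09 TPM in lymph node. Il7r, the receptor of the survival cytokine interleukin-7, was 489.5, 456 and 433 TPM in lung and 65.7, 65.6 and 67.9 TPM in lymph node (log2 fold change 2.77 ± 0.062, adjusted p = 6.97e-07). The chromatin organizer Satb1 was 419 ± 36.5 TPM in lung and 148 ± 2.12 TPM in lymph node.

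Tcf7 and Id3, transcription factors of the same list, were lower. Tcf7 (TCF-1) was 142, 161 and 154 TPM in lung and 432, 426 and 433 TPM in lymph node (log2 fold change -1.50 ± 0.057, adjusted p = 5.82e-06). Id3, which opposes E proteins, was 13.99, 15.2 and 24.2 TPM in lung and 78.8, 81.9 and 81.6 TPM in lymph node (log2 fold change -2.16 ± 0.20, adjusted p = 0.000263), while Id2, given above, was higher by 2.94 log2 units. Lung had less Tcf7 and less Id3 than each of the other 4 sites. Lef1, the partner of Tcf7, was 124 ± 2.29 TPM in lung and 139 ± 6.65 TPM in lymph node, not called as deposited but higher when scaled to T cell genes (0.46, adjusted p = 0.0014). The interleukin-6 receptor Il6ra was 22.5 ± 3.34 TPM in lung and 88 ± 2.52 TPM in lymph node and Igfbp4 60.3 ± 6.19 TPM in lung and 194 ± 7.34 TPM in lymph node. The list counted 12 higher and 6 lower under T cell gene scaling and 11 higher and 9 lower after GC correction.

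Trafficking receptors and integrins were called equally in both directions on the deposited scale, 10 higher and 10 lower of 23 tested. The list counted 11 higher and 8 lower with median ratio scaling and 12 higher and 7 lower when scaled to T cell genes. After GC correction it counted 11 higher and 9 lower. Cxcr4, the receptor for Cxcl12, was 412, 429 and 469 TPM in lung and 52.7, 57.5 and 53.7 TPM in lymph node (log2 fold change 2.97 ± 0.0705, adjusted p = 8.37e-07). The integrin chain Itgav, which activates TGF-beta, was 111 ± 7.98 TPM in lung and 25.5 ± 2.64 TPM in lymph node and Itgb1 358 ± 19.9 TPM in lung and 194 ± 0.86 TPM in lymph node. The chemokine receptors Cxcr3, Ccr4 and Ccr2 were higher: Cxcr3 was 107 ± 6.59 TPM in lung and 35.7 ± 1.08 TPM in lymph node, Ccr4 96.5 ± 3.84 TPM in lung and 54.8 ± 1.36 TPM in lymph node and Ccr2 154 ± 11.8 TPM in lung and 43.6 ± 1.05 TPM in lymph node; Ccr2 is also a monocyte marker and was 355 ± 15.7 TPM in blood. Ccr9, Ccr10 and Cxcr5 were lower. Ccr9, the gut receptor, was 2.47, 3.18 and 2.62 TPM in lung and 18.4, 18.9 and 18.4 TPM in lymph node (log2 fold change -2.38 ± 0.17, adjusted p = 7.09e-05). Ccr10, a skin receptor, was 0.82 ± 0.34 TPM in lung and 7.39 ± 1.46 TPM in lymph node, and the follicle receptor Cxcr5 11.1 ± 3.82 TPM in lung and 42.8 ± 3.14 TPM in lymph node. Both chains of the integrin LFA-1, Itgal (149 ± 7.4 TPM in lung and 355 ± 3.58 TPM in lymph node) and Itgb2 (166 ± 5.08 TPM in lung and 388 ± 3.19 TPM in lymph node), were lower in lung.

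General T cell genes were lower in 17 of 20 cases and higher in 3, with a median of -0.61. Their sum was 8299 to 8867 TPM in lung and 12937 to 12973 TPM in lymph node. In these bulk libraries fewer T cells and less T cell RNA per cell cannot be told apart. Scaled so that these genes are equal on average, 6 were higher and 5 lower, which shows where members differ from one another. The kinase Lck was 286, 301 and 313 TPM in lung and 1152, 1141 and 1104 TPM in lymph node (log2 fold change -1.91 ± 0.045, adjusted p = 8.1e-07). The adaptor Lat was 225, 231 and 214 TPM in lung and 735, 741 and 740.2 TPM in lymph node (log2 fold change -1.72 ± 0.043, adjusted p = 9.59e-07), and Ptprcap, a partner of CD45, 163 ± 30.5 TPM in lung and 728 ± 14.4 TPM in lymph node. The costimulatory receptors Cd28 (208 ± 10.1 TPM in lung and 108 ± 1.11 TPM in lymph node) and Cd2 (1055 ± 28.5 TPM in lung and 706 ± 11.4 TPM in lymph node) were higher in lung. Lck and Lat were lower in lung than at each of the other 4 sites.

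Of 17 genes of interleukin-2 signalling and its feedback, 6 were higher and 4 lower, Il2ra (above) among the latter. Among all genes tested, 16% were higher and 29.8% lower. The beta chain Il2rb was 415 ± 6.96 TPM in lung and 385 ± 6.9 TPM in lymph node, and the common gamma chain Il2rg 670.1 ± 5.61 TPM in lung and 669 ± 13 TPM in lymph node, neither called as deposited. Il2rb was called without lung replicate 3 (0.12, adjusted p = 0.0361), and both chains were called higher under the 3 other scales. Stat5a was 243, 224 and 224 TPM in lung and 69.8, 70.2 and 67.9 TPM in lymph node (log2 fold change 1.72 ± 0.062, adjusted p = 4.37e-06), and Stat5b 272 ± 29.3 TPM in lung and 99 ± 1.91 TPM in lymph node. Socs3, a feedback inhibitor of cytokine signals, was 557, 592 and 626 TPM in lung and 88.9, 84.6 and 86.7 TPM in lymph node (log2 fold change 2.76 ± 0.059, adjusted p = 6.15e-07), and the kinase Pim1 631 ± 48.3 TPM in lung and 204 ± 4 TPM in lymph node. The survival gene Bcl2 was lower (26.9 ± 3.77 TPM in lung and 79.2 ± 0.86 TPM in lymph node) and so was the kinase Jak3 (58.6 ± 3.27 TPM in lung and 153 ± 1.56 TPM in lymph node). The STAT5 target Cish was 86.6, 89.97 and 98.4 TPM in lung and 94.03, 88.6 and 92.4 TPM in lymph node and was not called on the deposited scale.

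Metabolic genes were mixed. Of 25 glycolysis and hypoxia genes, 15 were higher and 6 lower (median 0.49). Hif1a, the oxygen-regulated factor, was 469.9, 463 and 465 TPM in lung and 100.2, 100.5 and 105 TPM in lymph node (log2 fold change 2.18 ± 0.046, adjusted p = 6.15e-07), and the lactate exporter Slc16a3 76.4, 75.9 and 75.3 TPM in lung and 7.17, 8.42 and 6.41 TPM in lymph node (log2 fold change 3.21 ± 0.12, adjusted p = 6.32e-06). The glucose transporters Slc2a1 (1.43 ± 0.15 log2 units) and Slc2a3 (-1.17 ± 0.15) differed in sign, as did the hexokinases Hk2 (1.93 ± 0.26) and Hk1 (-1.44 ± 0.085). Slc16a3 averaged 65.8 TPM in blood, 45.9 TPM in bone marrow, 9.81 TPM in liver and 7.56 TPM in spleen. Hk2 averaged 16.6, 10.8, 6.29 and 2.1 TPM at the same sites. The part of myeloid transcripts in the values of Slc16a3 and Hk2 was not tested. In cholesterol and fatty acid synthesis, 9 of 25 were higher and 4 lower, beside 16% higher and 29.8% lower among all genes tested. Mevalonate kinase (Mvk) was 126, 139 and 114 TPM in lung and 11.5, 10.3 and 10.2 TPM in lymph node (log2 fold change 3.45 ± 0.11, adjusted p = 2.89e-06), and stood at 12.9 ± 1.7 TPM in spleen, the highest of the other 4 sites. The 2 desaturase genes were opposed, with Scd1 at 23.5 ± 7.35 TPM in lung and 8.7 ± 0.18 TPM in lymph node and Scd2 at 10.2 ± 1.23 TPM in lung and 57 ± 0.74 TPM in lymph node. Mitochondrially encoded mRNAs were higher for 12 of 13. They ranged from mt-Co3 at 7944, 4018 and 4718 TPM in lung and 573, 1102 and 1039 TPM in lymph node to mt-Cytb at 4894, 5138 and 4650.1 TPM and 3896, 3945 and 3891 TPM, while mt-Nd4l was not called. Replicates of mt-Co3 were far more scattered, with an SD of 2094 TPM in lung, than those of mt-Cytb, with an SD of 244 TPM.

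Interferon response genes were lower in 13 of 23 tested cases and higher in 3 (median -0.55). The deconjugase Usp18 was 5.39, 4.45 and 4.38 TPM in lung and 25.9, 28.5 and 28.6 TPM in lymph node (log2 fold change -2.32 ± 0.15, adjusted p = 4.74e-05). Ifit2 was 8.86 ± 0.71 TPM in lung and 25.6 ± 0.085 TPM in lymph node. The factors Irf1 (334 ± 34.5 TPM in lung and 194 ± 0.79 TPM in lymph node) and Irf7 (98.7 ± 12.1 TPM in lung and 59.4 ± 1.07 TPM in lymph node) were higher. With T cell gene scaling the list had 6 higher and 6 lower. Cell cycle genes were lower in 13 of 26 cases and higher in 2, with a median of -0.63. Mitotic Plk1 was 0.57, 0.93 and 0.98 TPM in lung and 7.9, 6.41 and 8.17 TPM in lymph node (log2 fold change -2.22 ± 0.23, adjusted p = 0.000426) and the replication helicase gene Mcm5 27.4 ± 1.99 TPM in lung and 62.4 ± 2.56 TPM in lymph node, while the clamp gene Pcna was 361, 316 and 277 TPM in lung and 185, 187 and 187 TPM in lymph node (log2 fold change 0.76 ± 0.095, adjusted p = 0.00103). Scaled to T cell genes, 5 were higher and 4 lower.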

How the data were processed

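The authors deposited 1 table of TPM values per library for 55487 gene IDs, and the submitters' processing notes name STAR, RSEM and mm10 without versions. Annotation and strand setting are not given in the sources used here, so overlapping and near-identical genes are uncertain. Poly(A) libraries were made with a directional kit, per the labels' protocols. TPM keeps no depth, which was estimated from the steps between low values (74.3 to 87.2% of values of up to 8 reads fell within 0.1 of a whole read). Symbols (55141 IDs) and positions are from GENCODE M21.

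Log2(TPM + 1) of genes averaging 1 TPM or more in either group was fitted with limma 3.58.1 (R 4.3.3, 6 libraries, 1 mean per group, trend and robust eBayes). The fit was tried on simulated data in which few genes changed and no offset or GC trend was set. The simulation therefore does not bear on how libraries are scaled. The log2(TPM + 1) scale understates the change of low genes. A fit of all 18 libraries gave the contrasts with other sites. In each direction, the 15 called genes with the largest change, 10 TPM or more on average and no overlap were named; predicted genes, receptor segments and small RNAs were passed over, and list members may be named too. The comparison, its genes and the 19 pathway and 13 marker lists were chosen with earlier results of these data known. The core motif TGACG was added after the values were seen. No list was tested as a set. Alternatives (16 planned and 1 added after seeing the data, the GC correction) changed the pseudocount, filter, scaling, weights, replicate block or libraries.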

Additional observations from a re-analysis of the deposited data

How the results depend on the processing

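On the main scale 2322 genes were called higher in lung and 4325 lower. Scaling to general T cell genes gave 4768 higher and 1541 lower, and the GC correction, chosen after seeing the data, 2488 lower. Leaving out 1 library gave 1749 to 2619 higher and 2774 to 4591 lower. The labels do not state whether same-numbered lung and lymph node libraries are paired. Deviations of same-numbered libraries correlated at 0.0248, 0.014 and 0.0237, and those of unlike number at -0.0223 to -0.0021. Each library thus correlated best with its own number, weakly, and whether they are paired is not known. A fit with the replicate block gave 2029 higher and 3700 lower. Against the main log2 fold changes, T cell gene scaling reversed Foxp3 (0.56), Cish (0.61), Lef1 (0.46), Ikzf2 (0.40), Cd4 (0.095), Maf (0.095), Anxa6 (0.063) and Ptger4 (0.0004), the GC correction Foxp3 (0.36) and Cish (0.45), and median ratio scaling Foxp3 (0.18). The cause of these changes was not tested. Of 183 genes named here, 163 kept their direction and their side of the threshold under all 17 alternatives in which they were tested, as did 27 of the 30 with the largest changes, the exceptions being Rdm1, Rln3 and Chtf8. In lung, 1 read of a 1 kb transcript is worth 0.2319 TPM, so values under about 1 TPM rest on few reads, and a gene listed at 0 there may be present.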

Other observations

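Some groups of genes not described above also differed between the sites. Of 18 galectin, annexin and S100 genes, 12 were called higher in lung and 3 lower (median 0.64). Lgals3 (galectin-3) was 128, 143 and 213 TPM in lung and 25.8, 13.4 and 9.18 TPM in lymph node (log2 fold change 3.33 ± 0.37, adjusted p = 0.000584), and Anxa1, an inhibitor of inflammation, 46.7, 41.3 and 39.9 TPM in lung and 3.36, 4.05 and 6.08 TPM in lymph node (log2 fold change 3.02 ± 0.21, adjusted p = 6.75e-05). Both are also made by myeloid cells, and Anxa1 was 556 ± 18.5 TPM in bone marrow and 276 ± 13.6 TPM in blood. The calcium-binding S100a4 was 970.0 ± 72.6 TPM in lung and 356 ± 5.53 TPM in lymph node and the LIM protein Crip1 1779.8, 1803 and 1945 TPM in lung and 338, 362 and 374 TPM in lymph node (log2 fold change 2.36 ± 0.053, adjusted p = 7.02e-07), with lung above each of the other 4 sites for Crip1. Lgals9, the ligand of the checkpoint receptor Havcr2, was lower at 70.3 ± 5.32 TPM in lung and 166 ± 4.8 TPM in lymph node, and Anxa6 at 248.7 ± 7.85 TPM in lung and 365 ± 2.86 TPM in lymph node, a difference that was lost when scaled to T cell genes. The part of myeloid transcripts in these values was not tested.

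Helper cytokine genes were low in both groups, with 4 of 13 tested called higher and 4 lower. Among all genes tested, 16% were higher and 29.8% lower. Il6 was 13.9, 12.9 and 13.8 TPM in lung and listed at 0 in all lymph node libraries, and Il2 was 5.43, 5.99 and 3.68 TPM in lung and 0.56, 0.62 and 0.96 TPM in lymph node (log2 fold change 1.80 ± 0.26, adjusted p = 0.00195). Il4 was listed at 0 in all lung libraries and was 2.52, 3.54 and 4.68 TPM in lymph node, the deeper group. Among T follicular genes, 7 of 11 were lower and 3 higher, but with T cell gene scaling 1 was lower and 3 were higher. Bcl6, the factor of follicular cells, was 57.5, 55.4 and 61.4 TPM in lung and 19.4, 17.8 and 18.8 TPM in lymph node (log2 fold change 1.59 ± 0.096, adjusted p = 3.59e-05), while the follicle receptor Cxcr5 was lower, as given above. Il21r was 236 ± 6.63 TPM in lung and 164 ± 1.01 TPM in lymph node.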
